A study of Homo sapiens with 26 samples.

Results

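The heat shock proteins and their DNAJ co-chaperones were measured by RNA sequencing in A375, a melanoma cell line, and NOMO-1, an acute myeloid leukaemia cell line. Members were all genes whose symbol is HSPA, HSPB, DNAJA, DNAJB or DNAJC followed by a number, together with HSP90AA1, HSP90AB1, HSP90B1, HSPD1, HSPE1 and HSPH1. The rule found 72 members among the 63129 genes of the expression table. They comprised 13 HSP70 genes, 3 HSP110 genes, 3 HSP90 genes, 2 mitochondrial chaperonin genes, 8 small heat shock protein genes, 4 DNAJA, 13 DNAJB and 26 DNAJC genes. The A375 cells were clone 1, clone 4 and the parental line, each with 1 uM CPI203 for 6 h, with the vehicle DMSO for 6 h, or untreated at 0 h. The NOMO-1 cells were a BET inhibitor-tolerant population and the parental line, each with 1 uM CPI203 or DMSO for 24 h. CPI203 is an inhibitor of the BET bromodomain proteins, which bind acetylated histones and recruit the transcription elongation machinery. The clones are BET inhibitor-tolerant A375 cells that their titles call resistant, and each stands for 1 clone. There were 26 libraries, 2 in each of 13 groups. The labels do not say that the 2 libraries of a group came from separate cultures, so p-values measure only the spread between them, which may be technical.

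Heat shock proteins keep other proteins folded. HSP70 proteins such as HSPA8 bind unfolded stretches and release them in an ATP-driven cycle, which J-domain proteins of the DNAJ families start and nucleotide exchange factors such as the HSP110 proteins reset. HSP90 proteins finish the folding of kinases and receptors, the chaperonin of HSPD1 and HSPE1 folds proteins in the mitochondrial matrix, and small heat shock proteins such as HSPB1 hold unfolded proteins without ATP. Transcription of many cytosolic members is driven by the heat shock factor HSF1, and that of HSPA5, HSP90B1 and other members in the endoplasmic reticulum by the unfolded protein response. Cancer cells of many kinds hold high levels of HSP90 and HSP70.

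The DNA words that these 2 regulators are known to bind can be seen in the promoters of some, but not all, of the members on which the results below turn. Only stretches with a match are printed. The stretches are from RefSeq, build GRCh38.p14, are written on the strand of the gene, and lie upstream of its start site. Capitals mark a heat shock element of 3 units in the first 4 sequences (GAANNTTCNNGAA or TTCNNGAANNTTC), a heat shock element of 2 units in the next 2 (GAANNTTC or TTCNNGAA), and the endoplasmic reticulum stress element in the last 2 (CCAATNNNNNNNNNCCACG). Both strands were searched. A word of 2 units is part of every word of 3 units, so those counts overlap.
HSPA8 (chr11:123062169-123062376, minus strand): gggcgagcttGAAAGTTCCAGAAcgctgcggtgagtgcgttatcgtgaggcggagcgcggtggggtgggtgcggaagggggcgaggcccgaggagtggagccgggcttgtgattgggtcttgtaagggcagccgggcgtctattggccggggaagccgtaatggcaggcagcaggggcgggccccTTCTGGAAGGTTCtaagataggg
HSP90AB1 (chr6:44247768-44247853, plus strand): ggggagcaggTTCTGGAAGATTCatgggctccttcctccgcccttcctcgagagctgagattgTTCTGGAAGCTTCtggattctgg
HSPD1 (chr2:197500058-197500090, minus strand): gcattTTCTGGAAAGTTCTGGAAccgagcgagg
HSP90AA1 (chr14:102087110-102087142, minus strand): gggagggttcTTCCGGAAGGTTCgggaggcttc
HSPA1A (chr6:31815427-31815454, plus strand): gaaaaccctgGAATATTCccgacctggc
HSPB1 (chr7:76302481-76302508, plus strand): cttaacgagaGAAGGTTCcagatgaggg
HSPA5 (chr9:125241381-125241419, minus strand): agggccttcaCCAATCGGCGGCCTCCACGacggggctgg
HSP90B1 (chr12:103930206-103930349, plus strand): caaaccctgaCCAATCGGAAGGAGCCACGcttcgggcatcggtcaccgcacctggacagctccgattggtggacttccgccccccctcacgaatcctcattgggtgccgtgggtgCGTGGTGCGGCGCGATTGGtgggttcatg
RefSeq windows, each 300 bases long, were available for 63 of the 72 member genes, as 82 windows. The element of 3 units was found in 8.54% of member windows and in 0.49% of all 35116 windows, and the element of 2 units in 28.0% and 13.5%. The stress element was found in 2.44% of member windows, those of HSPA5 and HSP90B1, and in 0.0769% of all windows. The windows of HSPH1, HSPE1, DNAJC7, DNAJC13 and DNAJC17 held none of these elements, and those of DNAJB1 only the element of 2 units. The HSPE1 window starts at chr2:197500129, so the HSPD1 stretch printed above, which ends at chr2:197500090, lies just outside it. A match is a description of letters, not of a bound site. HSPA5, the main HSP70 of the endoplasmic reticulum, and HSP90AA1, the stress-inducible HSP90, thus carry different words, and the sections below give their values side by side.

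Values are FPKM, fragments scaled to transcript length and to the library's mapped total, so that levels of different genes can be set side by side. Depth is unknown because no read counts were analysed here. A member was tested where it reached 1 FPKM in at least 2 libraries of the line, which 60 members did in A375 and 54 in NOMO-1, and 11 members stayed under 1 FPKM in all 26 libraries: DNAJB3, DNAJB7, DNAJB8, DNAJB13, HSPA7, HSPA12B, HSPB2, HSPB3, HSPB6, HSPB7 and HSPB9. Changes are differences of log2(FPKM + 1), which understate the change of low genes. A member is called where limma's adjusted p, by Benjamini-Hochberg over all 16935 genes tested in A375 or 16753 in NOMO-1, is below 0.05. The replicates' median gap over genes was 0.23 in parental DMSO, 0.30 in clone 4 DMSO and 0.24 in clone 4 CPI203 (absolute log2 difference), compared with values between 0.064 and 0.12 for the remaining A375 groups and between 0.077 and 0.18 for those of NOMO-1. An earlier analysis of these data found 3 A375 libraries to stand apart, replicate 1 of parental DMSO and of clone 4 DMSO, and replicate 2 of clone 4 with CPI203. Some results without them are given beside the main ones. Leaving them out leaves 1 library in each of these groups, whose spread is then borrowed from the other groups. Changes that use these groups are therefore given without a test, apart from counts in the section on how the results depend on the processing. Clone 1 keeps all its libraries, so its own changes stay the same and only the shared estimate of the spread differs. Of the melanoma markers, SOX10 stood between 126 and 318 FPKM in A375, whereas the pigment genes TYR, MLANA and PMEL were near 0. In NOMO-1 the myeloid factor SPI1 stood between 33.9 and 189 FPKM and the monocyte marker CD14 under 1 FPKM. Of 10 melanoma and neural crest markers, 6 had a median of at least 1 FPKM in A375 and 2 in NOMO-1. Of 10 myeloid markers, 9 did in NOMO-1 and 2 in A375, CD33 with a median of 21.6 FPKM and LYZ with 4.88 FPKM. Of 5 epithelial markers, KRT8 and KRT18 did in each line (KRT18 had a median of 117 FPKM in A375), and of 4 erythroid and 4 lymphoid markers none did in either line. HSPA1A and HSPA1B are near-identical copies whose reads the authors' counting may have split, HSPA1L overlaps HSPA1A by 147 bases, and the annotated span of HSPD1 contains HSPE1. The use of strand is not given in the sources used here, so levels within these pairs are uncertain. In such bulk libraries, fewer cells of a type and less RNA per cell cannot be told apart.

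HSPA8 and the HSP90 genes led the members' levels in both lines. HSPA8, the constitutive cytosolic HSP70 (hg19 chr11:122928197-122933938), was the highest member over the 18 A375 libraries, at 806 to 2542 FPKM with a median of 1596 FPKM, and over the 8 NOMO-1 libraries, at 398 to 894 FPKM with a median of 682 FPKM. HSP90AA1 followed with a median of 941 FPKM in A375 and 422 FPKM in NOMO-1, and HSP90AB1, the constitutive HSP90, with 648 FPKM and 372 FPKM. HSP90B1, the HSP90 of the endoplasmic reticulum, ranked next in each line. The ranges of neighbours in this order overlapped in both lines, except those of HSP90AB1 (499 to 731 FPKM) and HSP90B1 (301 to 436 FPKM) in A375. The stress-inducible HSPA1A (hg19 chr6:31783291-31785717) had a median of 134 FPKM in A375 and ranged more widely, with a lowest value of 24.0 FPKM and a highest of 256 FPKM. The members together took 0.748% and 0.753% of all summed FPKM in untreated parental A375, the lowest shares among the A375 libraries. Their highest share in A375 was 1.53%, in a clone 4 library with CPI203, and the next was 1.35%, in a clone 1 library with CPI203. In NOMO-1 they took 0.987% and 0.979% in tolerant cells with CPI203, 1.13% and 1.12% in tolerant cells with DMSO, 0.698% and 0.680% in parental cells with CPI203, and 0.914% and 0.892% in parental cells with DMSO.

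**Figure D1:**
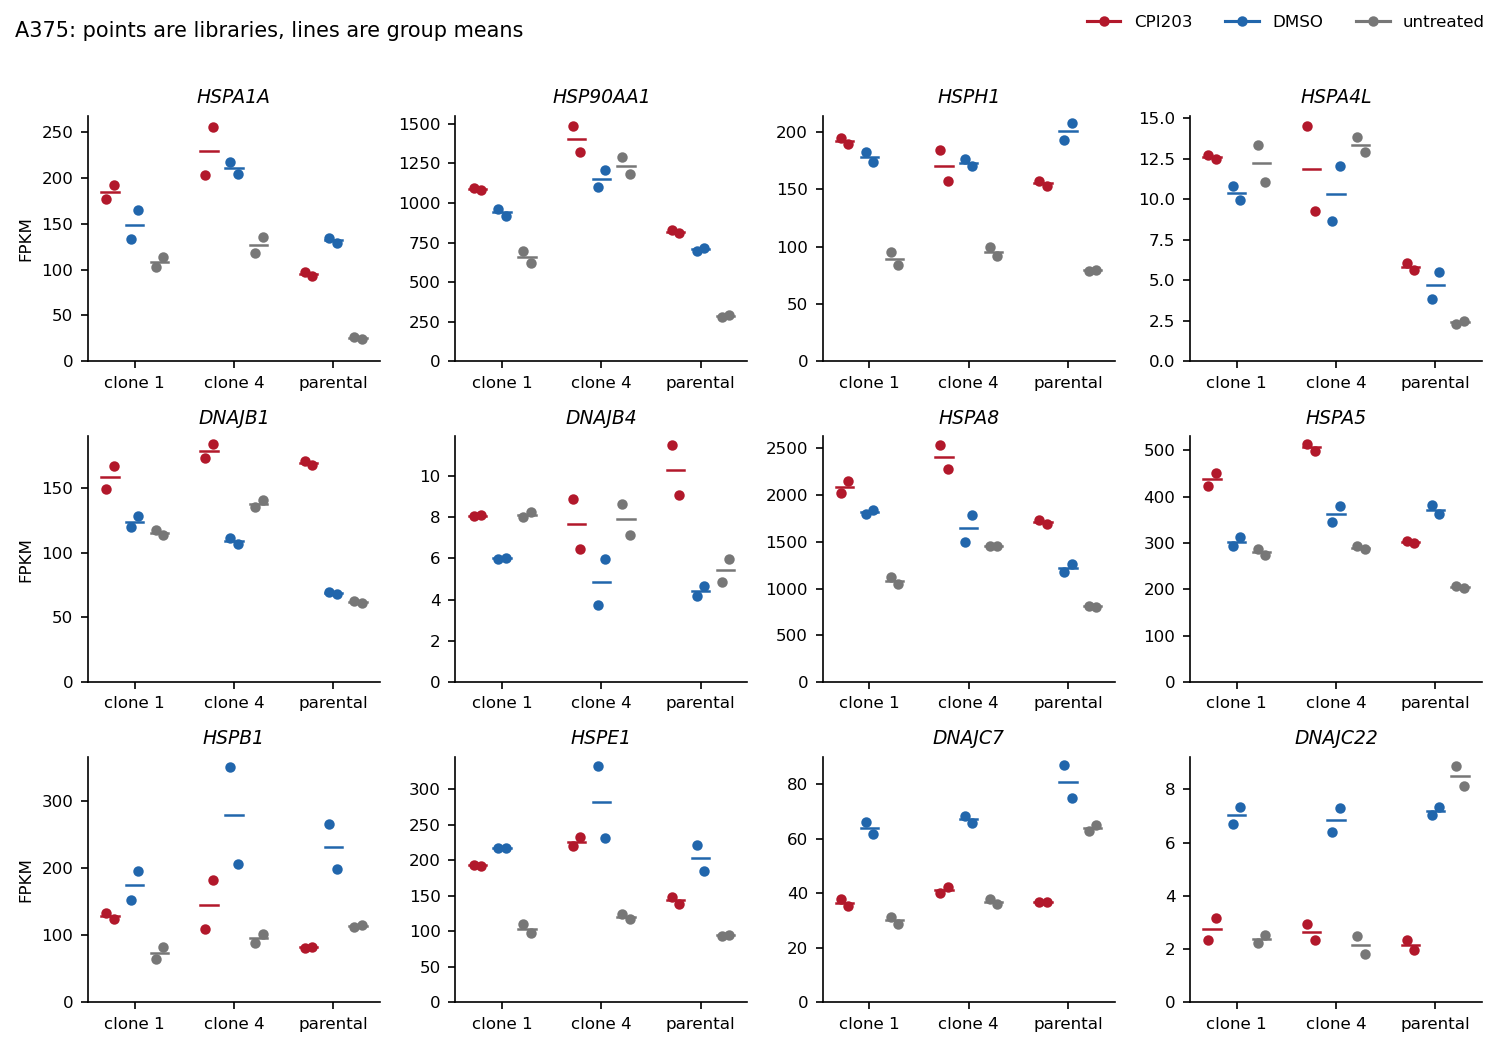
FPKM (vertical axis, from 0) of 12 members in each A375 library, by population and treatment. Points are single libraries and lines are the means of 2 libraries, with CPI203 in red, DMSO in blue and untreated in grey. HSPA1A stands at 24.0 and 26.7 FPKM in untreated parental cells, below every other A375 library.

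The first comparison set 6 h of CPI203 against DMSO in each A375 population. DNAJB1, the J-domain partner of the inducible HSP70, and DNAJC1, a J-domain protein of the endoplasmic reticulum membrane, rose in all 3 populations, and DNAJC7, DNAJC17 and DNAJC22 fell in all 3. HSPB1 fell in parental cells and in clone 4. HSPA5 rose in both clones and fell slightly in parental cells, where the inducible HSP70 copies also fell. Of the 60 members tested, 18 were called in clone 1, with 8 higher and 10 lower, where 22.0% of all genes tested were called (8.41% higher and 13.6% lower). In clone 4, 19 were called, with 13 higher and 6 lower, against 23.6% of all genes (8.86% higher and 14.8% lower). In parental cells 33 were called, with 12 higher and 21 lower, against 36.4% of all genes (15.0% higher and 21.4% lower). The median log2 change was -0.01 over the members and -0.03 over all genes in clone 1, 0.03 and -0.05 in clone 4, and -0.10 and -0.04 in parental cells. The counts rest on few libraries: leaving out any 1 clone 1 library left 10 or 11 members called in clone 1, and leaving out parental DMSO replicate 1 or either parental CPI203 library left 20 called in parental cells. With a correction for transcript length and GC content, clone 1 had 17 members higher and 10 lower. Without the 3 libraries that stand apart, 20 were higher and 14 lower in clone 1. Clone 4 and parental cells then have 1 DMSO library each, so no count is given for them.

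DNAJB1 (hg19 chr19:14625582-14640582) stood at 149.5 and 167 FPKM with CPI203 and 119.6 and 128 FPKM with DMSO in clone 1. It stood at 173 and 184 FPKM with CPI203 and 111 and 107 FPKM with DMSO in clone 4. In parental cells it stood at 171 and 168 FPKM with CPI203 and 69.3 and 68.2 FPKM with DMSO. Levels with CPI203 lay close together in the 3 populations, and those with DMSO were higher in the clones. The log2 change was 0.35, SE 0.08, adjusted p = 0.00661 in clone 1, 0.71, SE 0.08, adjusted p = 5.86e-05 in clone 4, and 1.29, SE 0.08, adjusted p = 1.77e-07 in parental cells. The clone 1 call was lost without clone 1 DMSO replicate 1 (log2 change 0.30) or CPI203 replicate 2 (log2 change 0.27). The change itself differed between populations, by -0.94, SE 0.11, adjusted p = 0.000529 in clone 1 minus parental and by -0.58, SE 0.11, adjusted p = 0.0137 in clone 4 minus parental. That second call was lost without parental CPI203 replicate 1 (-0.57), parental CPI203 replicate 2 (-0.59) or clone 4 CPI203 replicate 1 (-0.53). DNAJB4, a close relative of DNAJB1, had 11.5 and 9.10 FPKM with CPI203 and 4.16 and 4.66 FPKM with DMSO in parental cells, without overlap (log2 change 1.06, SE 0.19, adjusted p = 0.00073). Its log2 change was 0.38, SE 0.19, adjusted p = 0.181 in clone 1 and 0.57, SE 0.19, adjusted p = 0.0415 in clone 4, the clone 4 call being lost without clone 4 DMSO replicate 1 (0.29) or CPI203 replicate 1 (0.37).

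Among the HSP70 genes, HSPA8 had 2542 and 2276 FPKM with CPI203 and 1502 and 1785 FPKM with DMSO in clone 4. It had 1730.0 and 1691 FPKM with CPI203 and 1177 and 1261 FPKM with DMSO in parental cells. Neither pair of groups overlapped (log2 change 0.55, SE 0.10, adjusted p = 0.00191 in clone 4, and 0.49, SE 0.10, adjusted p = 0.00236 in parental cells), and neither call was made after quantile normalization. In clone 1 the log2 change was 0.19, SE 0.10, adjusted p = 0.208, and without the 3 libraries that stand apart it was called (adjusted p = 0.00323). The inducible copies HSPA1A and HSPA1B fell in parental cells, HSPA1B by 0.40 on the log2 scale with a call lost without any 1 of the 4 parental libraries compared (-0.43 to -0.37). HSPA1A had 97.4 and 92.8 FPKM with CPI203 and 135 and 129 FPKM with DMSO there (log2 change -0.47, SE 0.13, adjusted p = 0.0131), a call lost without parental DMSO replicate 1 (-0.43) or CPI203 replicate 2 (-0.43). With the copies summed the log2 change was -0.44 (adjusted p = 0.0213). HSPA1A was not called in clone 1 (176 and 192 FPKM with CPI203, 134 and 164 FPKM with DMSO, adjusted p = 0.107) or in clone 4 (203 and 256 FPKM with CPI203, 217 and 204 FPKM with DMSO, adjusted p = 0.565). Without the 3 libraries that stand apart its clone 1 change of 0.31 was called (adjusted p = 0.0287). Its difference from the parental change, with 1 parental DMSO library left, was then 0.75.

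HSPA5, also called BiP (hg19 chr9:127997132-128003609), went opposite ways. It had 422 and 451 FPKM with CPI203 and 293 and 312 FPKM with DMSO in clone 1, and 514 and 499 FPKM with CPI203 and 346 and 380.0 FPKM with DMSO in clone 4. In parental cells it had 305 and 300.2 FPKM with CPI203 and 381 and 363 FPKM with DMSO. CPI203 libraries were the higher in each clone and the lower in parental cells, with no overlap. The log2 change was 0.53, SE 0.08, adjusted p = 0.000548 in clone 1, 0.48, SE 0.08, adjusted p = 0.00106 in clone 4, and -0.30, SE 0.08, adjusted p = 0.0119 in parental cells. The parental call was lost without DMSO replicate 1 (-0.26), CPI203 replicate 1 (-0.31) or CPI203 replicate 2 (-0.28). The difference of the changes was 0.83, SE 0.11, adjusted p = 0.00158 in clone 1 minus parental and 0.78, SE 0.11, adjusted p = 0.00227 in clone 4 minus parental, and after quantile normalization neither was called (adjusted p = 0.0776 and 0.0513). The other members of the endoplasmic reticulum did not all go with HSPA5. Of 8 such members, 2 rose and 0 fell in clone 1, 3 rose and 0 fell in clone 4, and 3 rose and 3 fell in parental cells. Of all genes, 8.41%, 8.86% and 15.0% were called higher and 13.6%, 14.8% and 21.4% lower in clone 1, clone 4 and parental cells. DNAJC1 rose in each: it had 19.6 and 19.5 FPKM with CPI203 and 11.04 and 10.3 FPKM with DMSO in clone 1 (log2 change 0.82, SE 0.08, adjusted p = 3.03e-05). In clone 4 it had 16.5 and 16.7 FPKM with CPI203 and 10.2 and 9.37 FPKM with DMSO (log2 change 0.71, SE 0.08, adjusted p = 9.36e-05). In parental cells it had 20.9 and 20.3 FPKM with CPI203 and 10.1 and 10.6 FPKM with DMSO (log2 change 0.92, SE 0.08, adjusted p = 4.06e-06), and no groups overlapped.

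HSPB1, the small heat shock protein HSP27 (hg19 chr7:75931861-75933612), had 134 and 124 FPKM with CPI203 and 153 and 195 FPKM with DMSO in clone 1. It had 108 and 182 FPKM with CPI203 and 350.4 and 205 FPKM with DMSO in clone 4. In parental cells it had 81.4 and 82.9 FPKM with CPI203 and 264 and 198 FPKM with DMSO. CPI203 libraries were lower without overlap in all 3 populations, although the clone 4 libraries differed widely among themselves. The log2 change was -0.42, SE 0.26, adjusted p = 0.301 in clone 1, -0.93, SE 0.26, adjusted p = 0.0221 in clone 4, and -1.47, SE 0.26, adjusted p = 0.000856 in parental cells. The clone 4 call was lost without clone 4 DMSO replicate 1 (-0.55) or CPI203 replicate 1 (-0.56). The changes were not called different between populations (clone 1 minus parental 1.05, SE 0.37, adjusted p = 0.262, and clone 4 minus parental 0.54, SE 0.37, adjusted p = 0.776). Without the 3 libraries that stand apart the clone 1 change of -0.42 was called (adjusted p = 0.0229). Its difference from the parental change, with 1 parental DMSO library left, was then 0.84. At low levels, and named here after their values were seen, 2 further members fell in parental cells. HSPB8, a partner of the co-chaperone BAG3, had 0.493 and 0.610 FPKM with CPI203 and 3.32 and 2.96 FPKM with DMSO (adjusted p = 1.86e-07). HSPA6, an HSP70 gene known to respond strongly to heat, had 0.236 and 0.260 FPKM with CPI203 and 1.91 and 1.77 FPKM with DMSO (adjusted p = 1.24e-06), and it lies close to the near-identical HSPA7. Together with DNAJB1 and HSPA5, these were the members whose change was called different in clone 1: 4 in all, where 1.91% of all genes were called (1.39% higher and 0.52% lower). The HSPA6 difference in clone 1 (0.75) lost its call without parental CPI203 replicate 1 (0.73) or clone 1 CPI203 replicate 2 (0.72). In clone 4 minus parental 5 members were called, HSP90B1 being the fifth (0.50, SE 0.11, adjusted p = 0.0345), where 2.29% of all genes were called (1.59% higher and 0.697% lower), with 3 called without parental CPI203 replicate 1 or 2 or clone 4 CPI203 replicate 1. Without the 3 libraries that stand apart, parental DMSO has 1 library, so a count of called differences is not used here. The HSP90B1 call was lost under 8 of the alternatives tried, including without parental DMSO replicate 1 (0.49) and without clone 4 CPI203 replicate 1 (0.44).

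Of the 5 members that fell in all 3 A375 populations, 3 were DNAJC genes and the others were HSPB8 and HSPA1L, both at low levels. The clone 1 fall of HSPB8 lost its call without any 1 clone 1 library (-0.34 to -0.23). HSPA1L lost its call in clone 4 without any 1 clone 4 library (-0.32 to -0.25) and in parental cells without DMSO replicate 1 (-0.30) or CPI203 replicate 1 (-0.33). DNAJC7, a J-domain protein that binds both HSP70 and HSP90, had 37.8 and 35.3 FPKM with CPI203 and 66.4 and 61.7 FPKM with DMSO in clone 1. In clone 4 it had 40.1 and 42.3 FPKM with CPI203 and 68.4 and 65.99 FPKM with DMSO. In parental cells it had 36.9 and 36.9 FPKM with CPI203 and 87.2 and 74.9 FPKM with DMSO. Its levels with CPI203 were all below its levels with DMSO (log2 change -0.79, SE 0.09, adjusted p = 5.28e-05 in clone 1, -0.69, SE 0.09, adjusted p = 0.000138 in clone 4, and -1.11, SE 0.09, adjusted p = 1.19e-06 in parental cells). DNAJC22 had 2.33 and 3.18 FPKM with CPI203 and 6.70 and 7.35 FPKM with DMSO in clone 1, 2.95 and 2.35 FPKM with CPI203 and 6.39 and 7.32 FPKM with DMSO in clone 4, and 2.33 and 1.98 FPKM with CPI203 and 7.04 and 7.33 FPKM with DMSO in parental cells. DNAJC17, a J-domain protein of splicing complexes, fell by 1.08, 1.15 and 1.06 on the log2 scale in clone 1, clone 4 and parental cells (adjusted p = 0.00129, 0.000837 and 0.000748). DNAJC21, which acts in ribosome assembly, rose by 0.37, 0.56 and 0.48 (adjusted p = 0.0305, 0.00334 and 0.00467). Its clone 1 call was lost without any 1 clone 1 library, with log2 changes of 0.33 to 0.42. Fitted by limma on the libraries of clone 4 alone, 0 members were called in clone 4, with 9 at an unadjusted p below 0.05.

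In NOMO-1, 24 h of CPI203 lowered most of the mitochondrial chaperones in parental cells, along with HSPB1, HSP90B1 and HSPA5, and the falls of the mitochondrial members were smaller in tolerant cells. HSPB1 fell in both populations. DNAJB4, DNAJC6 and DNAJC21 rose in both. Of 54 members tested, 25 were called in tolerant cells, with 6 higher and 19 lower, where 39.2% of all genes were called (18.4% higher and 20.7% lower). In parental cells 36 were called, with 11 higher and 25 lower, where 60.0% of all genes were called (27.0% higher and 33.0% lower). The median log2 change was -0.14 over the members and 0.00 over all genes in tolerant cells, and -0.21 and -0.05 in parental cells. The share of members called in parental cells, 66.7%, was near that of all genes. The change was called different in 19 members (tolerant minus parental, 10 positive and 9 negative), against 31.8% of all genes (16.9% higher and 14.9% lower), and in 30 members without parental DMSO replicate 2.

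In the mitochondrial matrix, HSPA9, the mitochondrial HSP70, had 129.6 and 122 FPKM with CPI203 and 182 and 175 FPKM with DMSO in tolerant cells. It had 57.1 and 57.1 FPKM with CPI203 and 139.8 and 141 FPKM with DMSO in parental cells. The groups did not overlap in either population, and the parental fall was the larger (log2 change -0.51, SE 0.07, adjusted p = 0.000428 in tolerant cells, and -1.28, SE 0.07, adjusted p = 9.73e-07 in parental cells, with a difference of 0.78, SE 0.10, adjusted p = 0.00046). HSPE1, the small chaperonin subunit (hg19 chr2:198364718-198368181), had 121 and 117 FPKM with CPI203 and 143 and 143 FPKM with DMSO in tolerant cells. It had 63.6 and 60.98 FPKM with CPI203 and 156 and 145 FPKM with DMSO in parental cells. Its tolerant change of -0.27 lost its call without tolerant DMSO replicate 1 (-0.26), DMSO replicate 2 (-0.27) or CPI203 replicate 2 (-0.24), against a parental change of -1.26, SE 0.07, adjusted p = 1.27e-06. The difference was 0.99, SE 0.10, adjusted p = 0.000147. HSPD1, the large chaperonin subunit, changed by -0.14, SE 0.06, adjusted p = 0.125 in tolerant cells and by -0.81, SE 0.06, adjusted p = 9.42e-06 in parental cells, a difference of 0.68, SE 0.09, adjusted p = 0.000726. DNAJA3, a J-domain partner of HSPA9, and DNAJC11, a protein of the mitochondrial outer membrane, differed the same way (0.59, SE 0.11, adjusted p = 0.00433, and 0.87, SE 0.14, adjusted p = 0.00185). Of 8 mitochondrial members, 3 fell in tolerant cells (median log2 change -0.12) and 6 fell in parental cells (median -0.85), none rose, and 5 had a called positive difference. Of all genes, 20.7% were called lower in tolerant cells and 33.0% in parental cells, and 16.9% had a called positive difference. In A375, 1 of the 8 fell in clone 1, 0 in clone 4 and 3 in parental cells after 6 h, where 13.6%, 14.8% and 21.4% of all genes were called lower. Time and cell line differ together between these series, so no comparison was made.

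HSPB1 had 60.2 and 44.9 FPKM with CPI203 and 184 and 167 FPKM with DMSO in tolerant cells, and 66.7 and 65.1 FPKM with CPI203 and 245 and 194 FPKM with DMSO in parental cells. The log2 change was -1.73, SE 0.15, adjusted p = 2.68e-05 in tolerant cells and -1.71, SE 0.15, adjusted p = 1.42e-05 in parental cells, with a difference of -0.02 (SE 0.21). In the endoplasmic reticulum, 5 of 8 members fell and none rose in tolerant cells, and 4 fell and 2 rose in parental cells. Of all genes, 20.7% were called lower and 18.4% higher in tolerant cells, and 33.0% and 27.0% in parental cells. HSPA5 had 171 and 164 FPKM with CPI203 and 237 and 239.8 FPKM with DMSO in tolerant cells, and 90.8 and 88.1 FPKM with CPI203 and 152 and 142 FPKM with DMSO in parental cells. It thus fell in both NOMO-1 populations (log2 change -0.51, SE 0.07, adjusted p = 0.000434 in tolerant cells, and -0.71, SE 0.07, adjusted p = 2.93e-05 in parental cells). HSP90B1 changed by -0.31, SE 0.07, adjusted p = 0.00626 in tolerant cells, a call lost without tolerant DMSO replicate 1 (-0.32) or 2 (-0.30), and by -0.94, SE 0.07, adjusted p = 5.29e-06 in parental cells. HSPH1, an HSP110 exchange factor, fell to 208 and 203 FPKM with CPI203, against 299 and 291 FPKM with DMSO, in tolerant cells. In parental cells it fell to 101 and 89.7 FPKM with CPI203, against 193 and 164 FPKM with DMSO (adjusted p = 0.00223 in tolerant cells, and 4.73e-05 in parental cells). HSPA1A was lower with CPI203 on average in both populations and was called in neither. Its log2 change was -0.50, SE 0.28, adjusted p = 0.192 in tolerant cells, where the groups overlapped. In parental cells it was -0.63, SE 0.28, adjusted p = 0.0816, without overlap. Same-numbered replicates were not treated as pairs, and anything they share would add to this spread. The missing calls therefore do not show that HSPA1A failed to respond.

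Some members moved differently in the tolerant and the parental population, and others moved the same way in both. DNAJC13, an endosomal J-domain protein, had 33.8 and 37.98 FPKM with CPI203 and 64.6 and 65.8 FPKM with DMSO in tolerant cells. It had 18.4 and 20.2 FPKM with CPI203 and 11.5 and 15.5 FPKM with DMSO in parental cells. CPI203 libraries were lower in tolerant cells and higher in parental cells, without overlap (log2 change -0.85, SE 0.13, adjusted p = 0.000835 in tolerant cells, and 0.50, SE 0.13, adjusted p = 0.00824 in parental cells, with a difference of -1.35, SE 0.18, adjusted p = 0.000712). The parental call was lost without parental CPI203 replicate 2 (0.43). DNAJB5 had 1.95 and 1.66 FPKM with CPI203 and 5.85 and 5.85 FPKM with DMSO in tolerant cells, and 2.60 and 2.47 FPKM with CPI203 and 2.27 and 2.16 FPKM with DMSO in parental cells (difference -1.43, SE 0.14, adjusted p = 0.000139). HSPA13, a divergent HSP70 of the endoplasmic reticulum, rose by 0.62 on the log2 scale in parental cells (adjusted p = 0.00107), with a difference of -0.78, SE 0.15, adjusted p = 0.00511. DNAJC6, the clathrin-uncoating factor auxilin, rose in both populations. It had 2.03 and 1.98 FPKM with CPI203 and 0.715 and 0.50 FPKM with DMSO in tolerant cells, and 5.33 and 5.66 FPKM with CPI203 and 0.822 and 1.26 FPKM with DMSO in parental cells (adjusted p = 0.000553 in tolerant cells, and 7.49e-06 in parental cells). DNAJB4 had 8.96 and 9.43 FPKM with CPI203 and 5.94 and 6.01 FPKM with DMSO in tolerant cells, and 11.7 and 11.4 FPKM with CPI203 and 6.02 and 6.35 FPKM with DMSO in parental cells (adjusted p = 0.00104 in tolerant cells, and 5.52e-05 in parental cells). DNAJC2, which works at the ribosome, fell to 17.9 and 19.9 FPKM with CPI203, against 35.5 and 37.4 FPKM with DMSO, in tolerant cells. It fell to 6.98 and 6.50 FPKM with CPI203, against 17.5 and 16.7 FPKM with DMSO, in parental cells. The difference between populations was not called for DNAJB4 (-0.26, SE 0.12, adjusted p = 0.14) or DNAJC2 (0.31, SE 0.12, adjusted p = 0.0833).

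**Figure D2:**
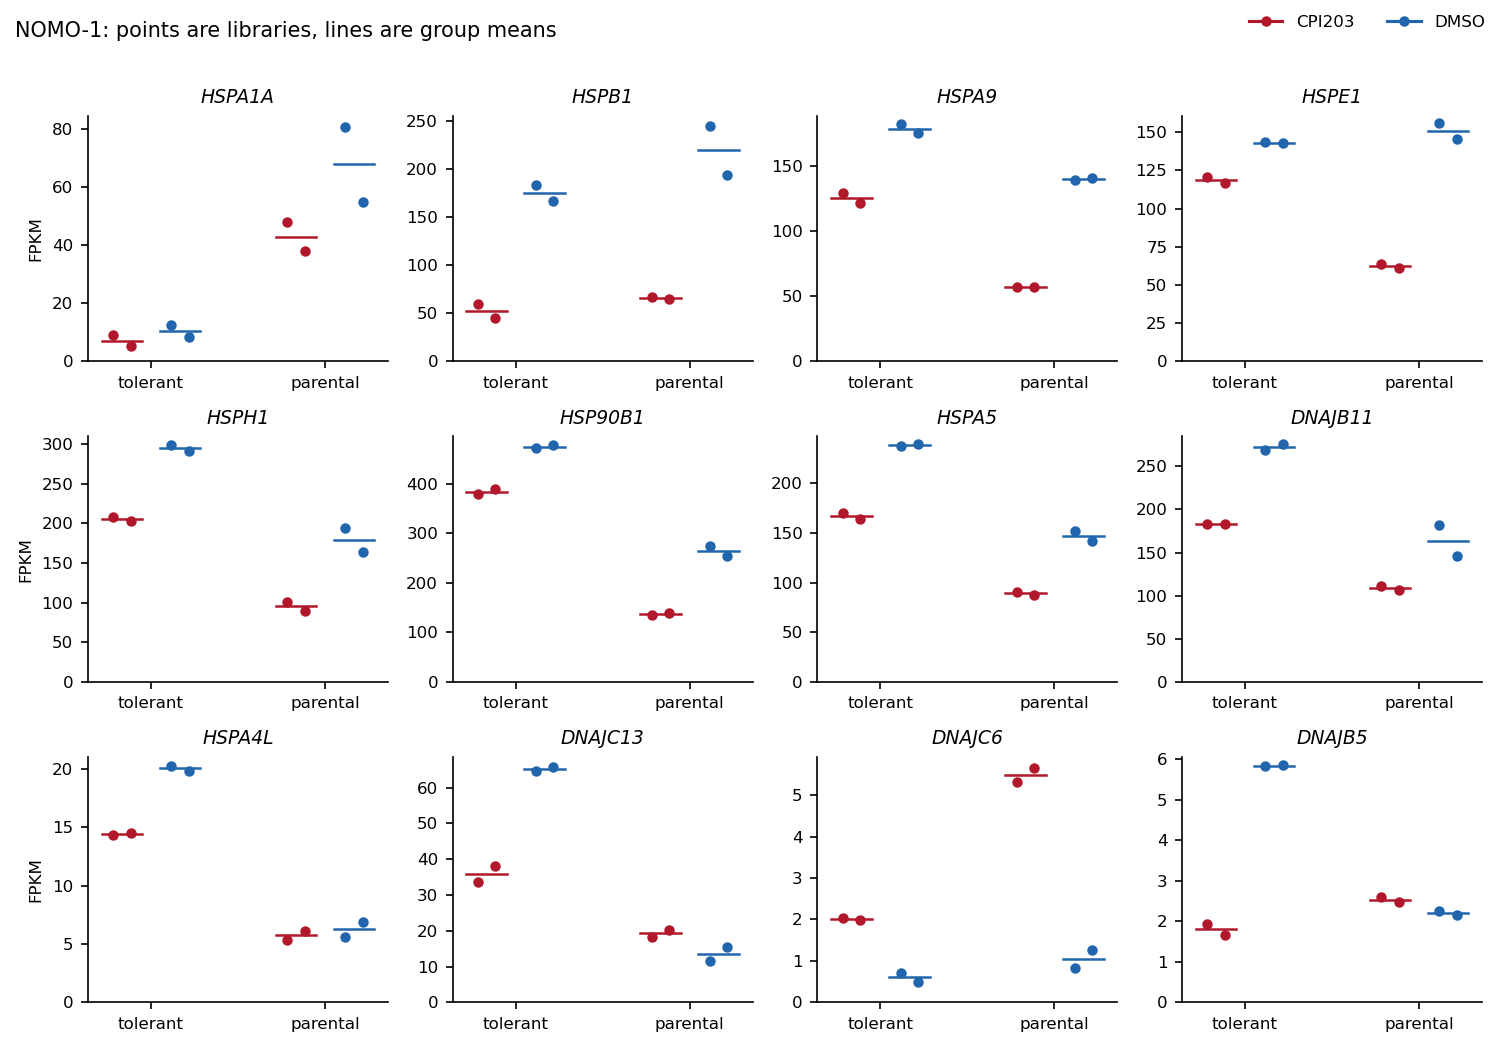
FPKM (vertical axis, from 0) of 12 members in each NOMO-1 library, tolerant cells left of parental cells. Points are single libraries and lines are the means of 2 libraries, with CPI203 in red and DMSO in blue. HSPA1A in tolerant cells stands below all parental libraries, and DNAJC13 in tolerant cells with DMSO above all others.

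Across the 5 populations given CPI203, 53 members were tested in each. Of all genes, 22.0% were called in clone 1, 23.6% in clone 4 and 36.4% in parental A375. In NOMO-1, 39.2% were called in tolerant cells and 60.0% in parental cells. The share of all genes called the same way in all 5 was not counted, and time and cell line differ together between the 2 lines. DNAJC7 and DNAJC17 were called lower in all 5, and DNAJC21 was called higher in all 5. DNAJC21 had 75.2 and 78.5 FPKM with CPI203 and 61.3 and 59.02 FPKM with DMSO in tolerant NOMO-1 cells, and 70.3 and 67.9 FPKM with CPI203 and 58.1 and 57.2 FPKM with DMSO in parental NOMO-1 cells. Its NOMO-1 calls were lost without tolerant DMSO replicate 2 (0.32) or parental CPI203 replicate 1 (0.23). DNAJC17 had 6.14 and 5.26 FPKM with CPI203 and 12.2 and 11.8 FPKM with DMSO in tolerant NOMO-1 cells. It had 3.68 and 3.54 FPKM with CPI203 and 13.5 and 10.01 FPKM with DMSO in parental NOMO-1 cells. For DNAJC7 these values were 48.4 and 49.2 FPKM with CPI203 and 72.5 and 72.8 FPKM with DMSO in tolerant cells, and 43.02 and 41.9 FPKM with CPI203 and 92.3 and 76.4 FPKM with DMSO in parental cells. A further 8 members were called in both directions among the 5 populations: HSPA5, HSPA8, HSP90AA1, DNAJB9, DNAJC5, DNAJC9, DNAJC13 and DNAJC18. The clone 4 rises of DNAJC5 and DNAJC9 were 0.40 and 0.30 with all libraries. Without the 3 libraries that stand apart, which leaves 1 library against 1 in clone 4, they were 0.16 and 0.33. HSPA8 rose in clone 4 and parental A375 and fell in parental NOMO-1 cells (log2 change -0.47, SE 0.10, adjusted p = 0.0039). No call was made in any population for 6 members, DNAJA2, DNAJB12, DNAJC8, DNAJC15, DNAJC16 and DNAJC30. In clone 1, however, DNAJB12 was called lower (-0.28, adjusted p = 0.0163) and DNAJC16 higher (0.29, adjusted p = 0.0279) without the 3 libraries that stand apart. In clone 4 that fit sets 1 library against 1. There DNAJB12 changed by -0.38 and DNAJC30 by -0.44, against -0.27 and -0.36 with all libraries.

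**Figure D3:**
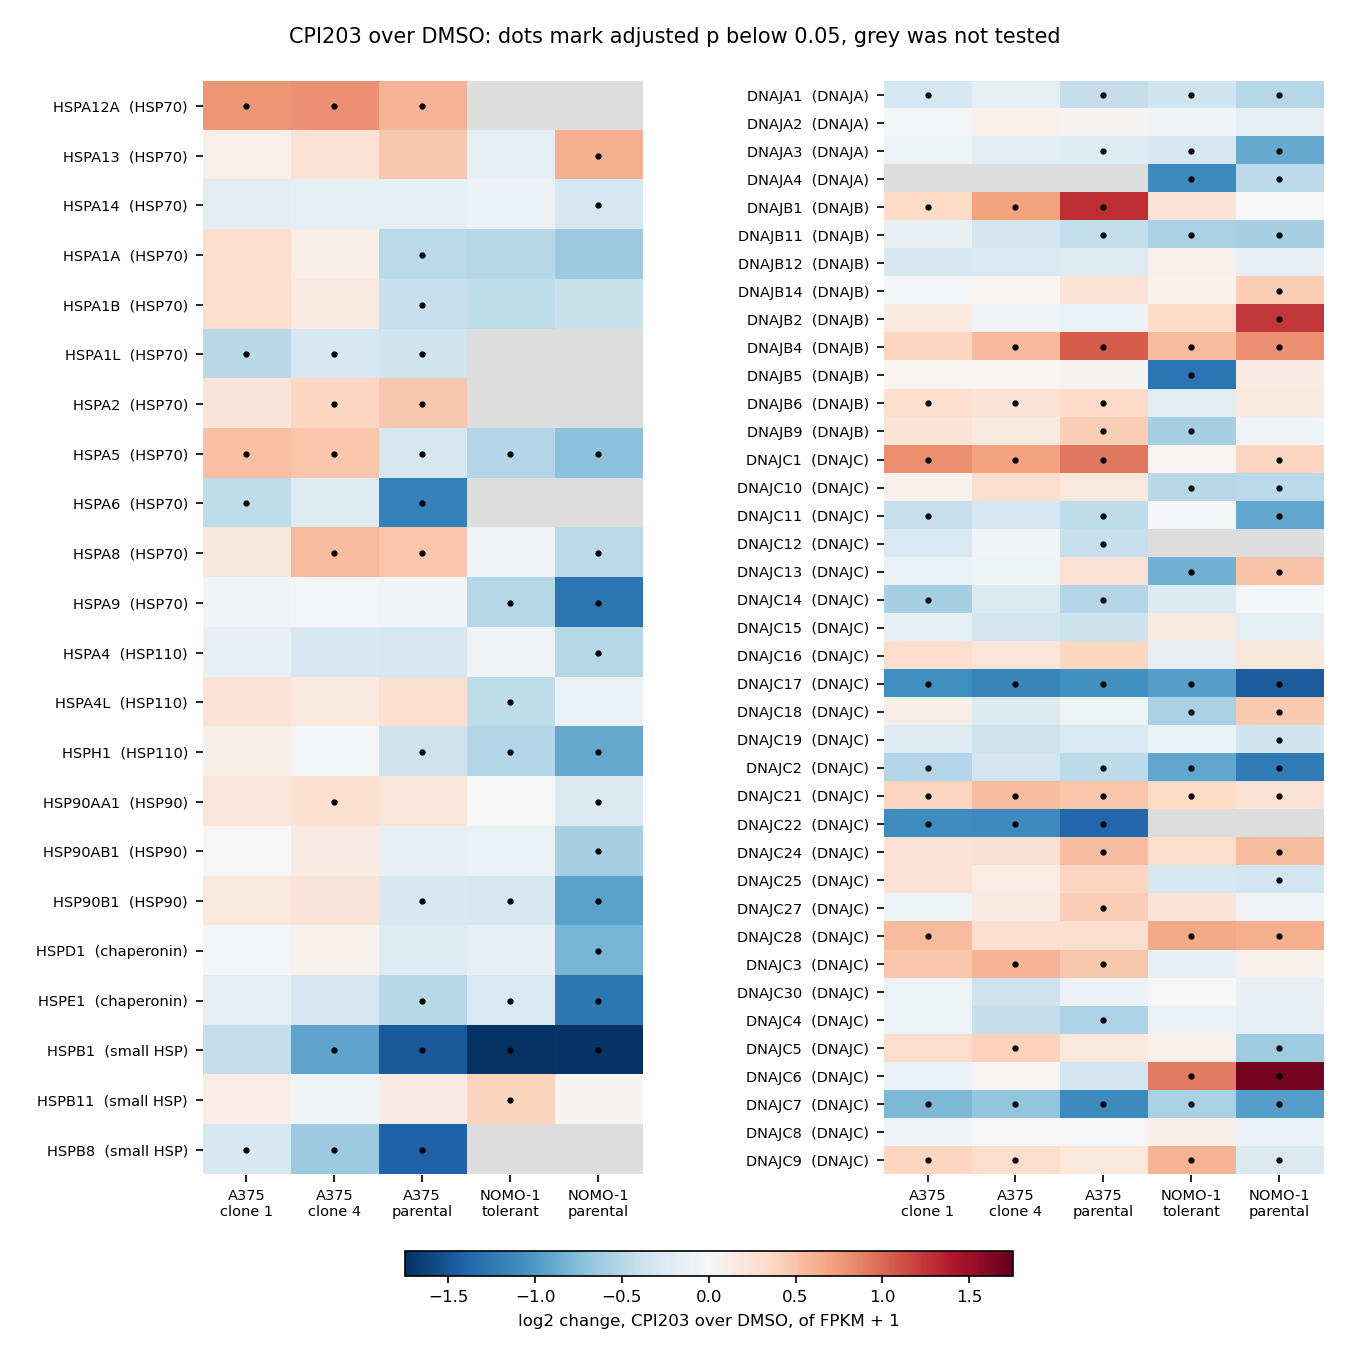
Log2 change of FPKM + 1, CPI203 over DMSO, for each member tested (rows) in the 5 populations (columns, clones and tolerant cells left of their parental line). Red is higher with CPI203, blue is lower, dots mark adjusted p below 0.05 and grey was not tested. HSPB1, DNAJC7 and DNAJC17 are blue in every column and DNAJC21 is red in every column, whereas HSPA5 is red in the clones and blue in the other 3.

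Without treatment, the clones held more HSPA1A, HSPA1B and HSP90AA1 mRNA than parental A375 and less HSPA6 mRNA. These clone libraries are placed by their titles, while their clone label names the parental line, and these labels could not be reconciled. HSPA1A, HSPA1B, HSPA4L, HSP90AA1 and DNAJB1 were the 5 members with the largest rises in both clones by the rule for named genes, and DNAJC12, DNAJC22 and DNAJC6 were among those with the largest falls. In clone 1, 32 of 60 members were called, with 17 higher and 15 lower, where 48.1% of all genes were called (17.1% higher and 31.0% lower). In clone 4, 32 were called, with 18 higher and 14 lower, where 51.1% of all genes were called (20.7% higher and 30.4% lower). The median log2 change was -0.03 over the members and -0.12 over all genes in clone 1, and 0.0031 and -0.08 in clone 4. For clone 1, median-ratio scaling gave 20 higher and 11 lower, and the length and GC correction 26 higher and 14 lower.

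HSPA1A had 102 and 114 FPKM in untreated clone 1, 118 and 136 FPKM in untreated clone 4 and 26.7 and 23.99 FPKM in untreated parental cells. Every clone library stood above both parental libraries (log2 change 2.05, SE 0.13, adjusted p = 3.51e-08 in clone 1, and 2.27, SE 0.13, adjusted p = 1.15e-08 in clone 4). With the copies summed the change was 2.07 in clone 1 and 2.29 in clone 4. HSP90AA1 (hg19 chr14:102547075-102606036) had 694 and 619.6 FPKM in clone 1, 1289.5 and 1181 FPKM in clone 4 and 283 and 290.0 FPKM in parental cells. It too was without overlap, and higher in clone 4 than in clone 1 (log2 change over parental 1.19, SE 0.10, adjusted p = 3.71e-07 in clone 1, and 2.10, SE 0.10, adjusted p = 1.35e-09 in clone 4). HSPA4L, an HSP110 exchange factor, had 13.4 and 11.1 FPKM in clone 1, 13.8 and 12.9 FPKM in clone 4 and 2.30 and 2.51 FPKM in parental cells (log2 change 1.95, SE 0.20, adjusted p = 3.11e-06 in clone 1, and 2.08, SE 0.20, adjusted p = 1.58e-06 in clone 4). DNAJB1 had 118 and 113 FPKM in clone 1, 135 and 140.3 FPKM in clone 4 and 62.2 and 60.7 FPKM in parental cells. All clone libraries were again the higher (log2 change 0.90, SE 0.08, adjusted p = 7.6e-07 in clone 1, and 1.15, SE 0.08, adjusted p = 6.45e-08 in clone 4). HSPA8 had 1120.3 and 1045 FPKM in clone 1, 1459 and 1450.5 FPKM in clone 4 and 811 and 806 FPKM in parental cells, and HSPA5 had 288 and 274 FPKM in clone 1, 293 and 287 FPKM in clone 4 and 206 and 203 FPKM in parental cells. Both were called higher in both clones, and after quantile normalization neither was called in either clone.

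Other members were lower in the untreated clones. DNAJC12, a co-chaperone of the aromatic amino acid hydroxylases, had 1.93 and 1.19 FPKM in clone 1, 1.88 and 2.01 FPKM in clone 4 and 8.97 and 7.92 FPKM in parental cells (log2 change -1.90, SE 0.14, adjusted p = 1.94e-07 in clone 1, and -1.68, SE 0.14, adjusted p = 5.36e-07 in clone 4). DNAJC22 had 2.23 and 2.51 FPKM in clone 1, 2.48 and 1.82 FPKM in clone 4 and 8.86 and 8.11 FPKM in parental cells. DNAJC6 had 7.14 and 7.07 FPKM in clone 1, 4.76 and 5.30 FPKM in clone 4 and 16.7 and 17.8 FPKM in parental cells. HSPA6, named after its values were seen, had 0.114 and 0.11 FPKM in clone 1, 0.186 and 0.148 FPKM in clone 4 and 1.74 and 1.95 FPKM in parental cells (log2 change -1.35, SE 0.09, adjusted p = 8.14e-08 in clone 1, and -1.29, SE 0.09, adjusted p = 1.22e-07 in clone 4). None of these 4 members had a clone library that reached the parental ones. HSPB8 was lower in clone 1 (log2 change -0.56, SE 0.09, adjusted p = 0.000137) and was not called in clone 4 (-0.21, adjusted p = 0.0547). HSPB1 changed by -0.63 in clone 1 (adjusted p = 0.0652) and by -0.26 in clone 4 (adjusted p = 0.443), neither called, and the clone 1 change was called without the 3 libraries that stand apart (adjusted p = 0.00137). DNAJC15, a mitochondrial import co-chaperone, was lower in clone 4 (log2 change -1.28, SE 0.15, adjusted p = 1.32e-05). DNAJC7 changed by -1.06, SE 0.09, adjusted p = 4.14e-07 in clone 1 and by -0.78, SE 0.09, adjusted p = 7.08e-06 in clone 4, and DNAJC17 by -1.03, SE 0.19, adjusted p = 0.000507 and -1.07, SE 0.19, adjusted p = 0.000334. DNAJC1 was higher in both clones (18.2 and 18.3 FPKM in clone 1, 14.8 and 14.1 FPKM in clone 4 and 10.2 and 9.07 FPKM in parental cells). With CPI203 in parental cells, a comparison that shares no library with these, DNAJC7, DNAJC17 and DNAJC22 also fell and DNAJB1 and DNAJC1 also rose. HSPA1A, HSPA1B and HSPA5, higher in both untreated clones, were called lower there. HSP90AA1 and HSPA4L, also higher in both untreated clones, were not called there. These members were picked, and the members going the same way were not counted. HEXIM1, no member and a gene known to rise with BET inhibition, had 29.1 and 32.2 FPKM in untreated clone 1, 30.9 and 31.1 FPKM in untreated clone 4 and 17.9 and 17.9 FPKM in untreated parental cells, and 61.9 and 60.3 FPKM in parental cells with CPI203. The labels do not say whether the clones were kept in CPI203 before harvest, and its part in these levels was not tested.

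In DMSO fewer members were called between the clones and parental cells than without treatment, and some differences were larger. For clone 1, 15 members were called, 6 higher and 9 lower, where 25.2% of all genes were called (11.7% higher and 13.5% lower), and 26 were called with the length and GC correction. For clone 4, 24 were called, 10 higher and 14 lower, where 31.4% of all genes were called (15.4% higher and 16.0% lower). The median log2 change was 0.03 over the members and 0.02 over all genes for clone 1, and -0.01 and 0.01 for clone 4. HSPA1A had 134 and 164 FPKM in clone 1, 217 and 204 FPKM in clone 4 and 135 and 129 FPKM in parental cells. It was above parental cells in clone 4 alone by the test (log2 change 0.17, SE 0.13, adjusted p = 0.393 in clone 1, and 0.67, SE 0.13, adjusted p = 0.00146 in clone 4). HSPA4L remained higher in both, with 10.8 and 9.94 FPKM in clone 1, 8.64 and 12.04 FPKM in clone 4 and 3.86 and 5.54 FPKM in parental cells (log2 change 1.01, SE 0.20, adjusted p = 0.00191 in clone 1, and 0.99, SE 0.20, adjusted p = 0.00186 in clone 4). HSP90AA1 had 963 and 919 FPKM in clone 1, 1098 and 1207 FPKM in clone 4 and 695 and 719 FPKM in parental cells, and the clone 1 call was lost without clone 1 DMSO replicate 1 (log2 change 0.38). DNAJC12 was lower in both clones (log2 change -1.14, SE 0.14, adjusted p = 5.36e-05 in clone 1, and -1.19, SE 0.14, adjusted p = 2.89e-05 in clone 4). HSPB8 was lower in both clones (log2 change -1.38, SE 0.09, adjusted p = 9.05e-08 in clone 1, and -0.69, SE 0.09, adjusted p = 4.71e-05 in clone 4). HSP90B1 changed by -0.51, SE 0.08, adjusted p = 0.000367 in clone 1 here, compared with -0.08, adjusted p = 0.455 without treatment. DNAJC22 and DNAJC17 had no call in either clone here (adjusted p = 0.91 and 0.775 for DNAJC22, and 0.921 and 0.936 for DNAJC17).

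The DMSO libraries were next set against the untreated ones, where the vehicle and the 6 h of culture cannot be told apart. In clone 1, 33 of 60 members were called, 27 higher and 6 lower, where 30.3% of all genes were called higher and 12.9% lower. In clone 4, 28 were called, 21 higher and 7 lower, where 28.3% of all genes were called higher and 13.0% lower. In parental cells 23 were called, 22 higher and 1 lower, where 12.2% of all genes were called higher and 10.3% lower. Over both directions 43.2%, 41.3% and 22.5% of all genes were called in clone 1, clone 4 and parental cells. The median log2 change was 0.25 over the members and 0.15 over all genes in clone 1, 0.18 and 0.11 in clone 4, and 0.15 and 0.0 in parental cells. Median-ratio scaling moved the all-gene median to 0.0 in clone 1 and 0.006 in clone 4, and split the members called into 19 higher and 10 lower in clone 1 and 18 higher and 11 lower in clone 4. Quantile normalization gave 22 higher and 9 lower in clone 1 and 16 higher and 12 lower in clone 4, and the length and GC correction gave 23 higher and 15 lower and 18 higher and 10 lower. In parental cells 15 members were called without parental untreated replicate 1.

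Cytosolic and mitochondrial members were among the rises. Of 8 mitochondrial members, 6 rose in clone 1, 4 in clone 4 and 4 in parental cells, and none fell. Of all genes, 30.3%, 28.3% and 12.2% were called higher in that order. The mitochondrial counts under other scalings are not given here. Of 12 cytosolic HSP70, HSP110 and HSP90 genes, 9 rose in clone 1 (median log2 change 0.48), 6 in clone 4 (median 0.30) and 9 in parental cells (median 0.58), against the same shares of all genes, and none fell. For these 12 genes, median-ratio scaling gave 5 higher in clone 1 and 6 higher and 1 lower in clone 4, and the length and GC correction 5 higher and 1 lower in each clone. HSPA1A rose to 135 and 129 FPKM with DMSO in parental cells, against 26.7 and 23.99 FPKM untreated (log2 change 2.33, SE 0.13, adjusted p = 7.32e-07). It had 134 and 164 FPKM with DMSO and 102 and 114 FPKM untreated in clone 1, and 217 and 204 FPKM with DMSO and 118 and 136 FPKM untreated in clone 4. The change was smaller in the clones, by -1.88, SE 0.18, adjusted p = 2.05e-05 in clone 1 minus parental and by -1.60, SE 0.18, adjusted p = 7.3e-05 in clone 4 minus parental. HSP90AA1 rose to 695 and 719 FPKM with DMSO in parental cells, against 283 and 290.0 FPKM untreated (log2 change 1.30, SE 0.10, adjusted p = 5.18e-06). Its change was likewise smaller in the clones (-0.78, SE 0.14, adjusted p = 0.00135 in clone 1 minus parental, and -1.40, SE 0.14, adjusted p = 2.34e-05 in clone 4 minus parental), and after quantile normalization the clone 1 difference was -0.46 and was not called. HSPH1 rose in all 3 populations. It had 182 and 174 FPKM with DMSO and 95.1 and 84.3 FPKM untreated in clone 1, 176 and 170.3 FPKM with DMSO and 99.4 and 91.9 FPKM untreated in clone 4, and 193 and 208 FPKM with DMSO and 79.1 and 80.05 FPKM untreated in parental cells (adjusted p = 4.48e-06, 2.17e-05 and 4.66e-06 in that order). DNAJA1, the main DNAJA partner of HSPA8, rose in all 3 as well (log2 change 1.01 in clone 1, 0.71 in clone 4 and 0.92 in parental cells). HSPE1 rose by 1.06, 1.19 and 1.09 in that order. DNAJB1 was not called in parental cells (69.3 and 68.2 FPKM with DMSO and 62.2 and 60.7 FPKM untreated, adjusted p = 0.166).

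The difference between the changes was called in 16 members for clone 1 minus parental, 6 positive and 10 negative, where 21.5% of all genes were called (15.5% higher and 5.98% lower). For clone 4 minus parental it was called in 20, 6 positive and 14 negative, where 20.7% were called (14.7% higher and 6.03% lower). The median difference was 0.08 over the members and 0.15 over all genes for clone 1, and 0.02 and 0.10 for clone 4. The clone 4 count was 11 or 13 without 1 of the parental or clone 4 untreated libraries. Quantile normalization gave 3 positive and 9 negative for clone 1 and 3 and 12 for clone 4, and the length and GC correction gave 6 and 17 for clone 1. Without the 3 libraries that stand apart, parental DMSO has 1 library, so a count of called differences is not used here. These differences share the untreated libraries with the comparison of the untreated clones and parental cells. A low level in an untreated clone therefore enters them as a positive difference, and a high level, as of HSPA1A, HSP90AA1 and HSPA4L, as a negative one. DNAJC6, low in both untreated clones, had positive differences that were not called (0.52, SE 0.35, adjusted p = 0.329 in clone 1, and 0.22, SE 0.35, adjusted p = 0.708 in clone 4). Its parental DMSO libraries lay far apart, at 10.2 and 16.9 FPKM. DNAJC22 rose to 6.70 and 7.35 FPKM with DMSO, against 2.23 and 2.51 FPKM untreated, in clone 1, and to 6.39 and 7.32 FPKM with DMSO, against 2.48 and 1.82 FPKM untreated, in clone 4. Parental cells had 7.04 and 7.33 FPKM with DMSO and 8.86 and 8.11 FPKM untreated (difference 1.46, SE 0.20, adjusted p = 0.000245 in clone 1, and 1.53, SE 0.20, adjusted p = 0.000193 in clone 4). DNAJC7 rose in both clones, to 66.4 and 61.7 FPKM with DMSO, against 31.4 and 28.9 FPKM untreated, in clone 1, and to 68.4 and 65.99 FPKM with DMSO, against 37.8 and 36.1 FPKM untreated, in clone 4 (difference from parental 0.73, SE 0.12, adjusted p = 0.00105 in clone 1, and 0.52, SE 0.12, adjusted p = 0.00967 in clone 4). DNAJC1 fell in both clones, to 11.04 and 10.3 FPKM with DMSO, against 18.2 and 18.3 FPKM untreated, in clone 1, and to 10.2 and 9.37 FPKM with DMSO, against 14.8 and 14.1 FPKM untreated, in clone 4. HEXIM1 had 19.9 and 21.4 FPKM with DMSO in clone 1, 15.7 and 18.9 FPKM in clone 4 and 19.5 and 20.00 FPKM in parental cells. The comparisons of DMSO with untreated cells and of CPI203 with DMSO share the DMSO libraries.

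**Figure D4:**
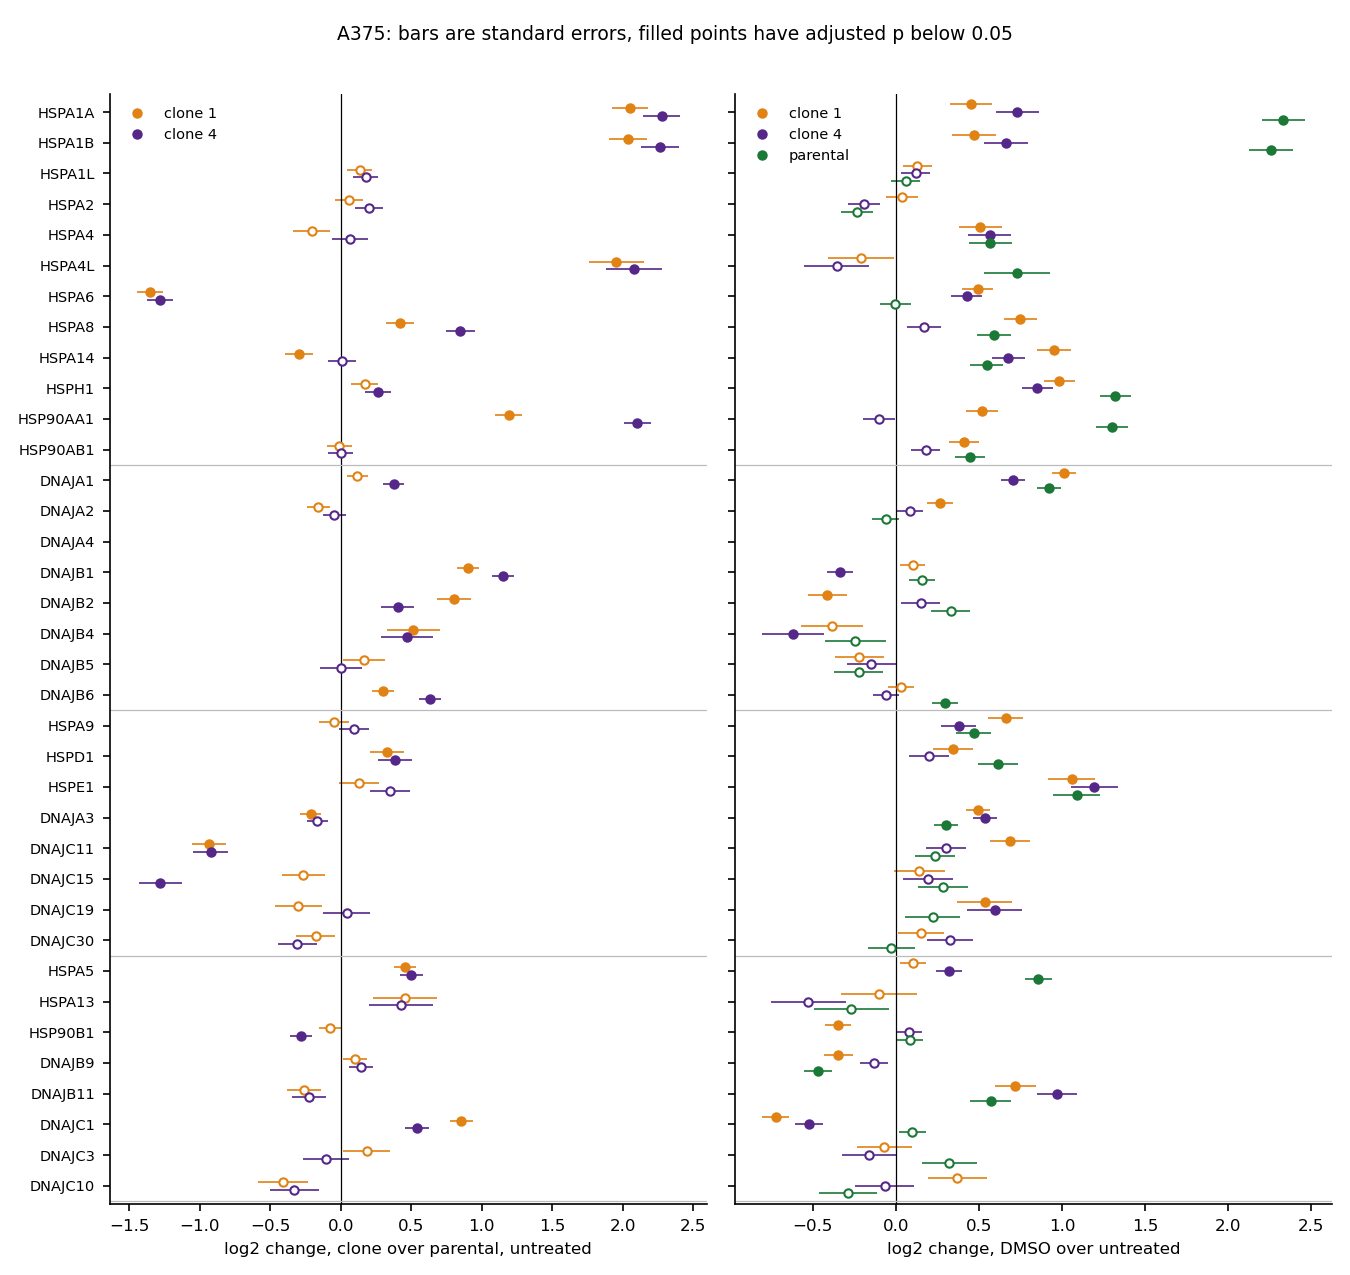
Log2 change of FPKM + 1 with its SE (horizontal axis) for members grouped by compartment in A375. The left panel gives clone 1 and clone 4 over parental cells, untreated, and the right panel gives DMSO over untreated in the 3 populations. Filled points have adjusted p below 0.05. HSPA1A and HSPA1B stand near 2 in both clones on the left, and on the right above 2 in parental cells and below 1 in the clones.

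In NOMO-1 with DMSO, tolerant cells had higher levels of the endoplasmic reticulum chaperones than parental cells and lower levels of the inducible HSP70 copies. Of 54 members, 34 were called, 23 higher and 11 lower, where 64.4% of all genes were called, 28.2% higher and 36.2% lower. The median log2 change was 0.05 over the members and -0.07 over all genes. HSPA1A had 12.6 and 8.29 FPKM in tolerant cells and 80.7 and 54.9 FPKM in parental cells (log2 change -2.59, SE 0.28, adjusted p = 6.47e-05). HSPA1B had 19.6 and 12.98 FPKM in tolerant cells and 80.98 and 51.6 FPKM in parental cells, and the summed copies changed by -2.28 (adjusted p = 0.000397). Both copies were far apart between the populations, although the replicates of each population differed by more than for most members. HSPA1A in the untreated A375 clones lay on the other side of its parental line, and the lines were not compared by a test.

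Of 8 members of the endoplasmic reticulum, 7 were higher in tolerant cells and none was lower (median log2 change 0.79), the one without a call being DNAJC1 (61.1 and 57.9 FPKM in tolerant cells and 76.7 and 62.03 FPKM in parental cells). Of all genes, 28.2% were called higher and 36.2% lower. HSPA5 had 237 and 239.8 FPKM in tolerant cells and 152 and 142 FPKM in parental cells (log2 change 0.69, SE 0.07, adjusted p = 2.11e-05). HSP90B1 had 473 and 479 FPKM in tolerant cells and 274 and 254 FPKM in parental cells (log2 change 0.85, SE 0.07, adjusted p = 4.88e-06). The groups did not overlap for either gene. HSPA13 had 31.1 and 30.2 FPKM in tolerant cells and 10.2 and 13.1 FPKM in parental cells (log2 change 1.33, SE 0.11, adjusted p = 5.84e-06). DNAJC10, which reduces disulfide bonds of proteins bound for degradation, had 50.7 and 50.96 FPKM in tolerant cells and 20.9 and 24.6 FPKM in parental cells (log2 change 1.13, SE 0.09, adjusted p = 5.28e-06). DNAJB11 and DNAJB9, both J-domain partners of HSPA5, rose by 0.74 and 0.85 on the log2 scale, and DNAJC3, which restrains the kinase PERK, by 0.68 (adjusted p = 0.000157, 0.000207 and 0.000125).

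Outside that compartment, the largest rise was of DNAJC13, with 64.6 and 65.8 FPKM in tolerant cells and 11.5 and 15.5 FPKM in parental cells (log2 change 2.21, SE 0.13, adjusted p = 6.06e-07). HSPA4L had 20.3 and 19.8 FPKM in tolerant cells and 5.58 and 6.93 FPKM in parental cells (log2 change 1.54, SE 0.11, adjusted p = 2.43e-06), and HSPH1 had 299 and 291 FPKM in tolerant cells and 193 and 164 FPKM in parental cells. These 2 of the 3 HSP110 genes were higher in tolerant cells, without overlap, whereas HSPA4, the third, was not called and its groups overlapped (log2 change 0.06, SE 0.11, adjusted p = 0.624). DNAJB5 had 5.85 and 5.85 FPKM in tolerant cells and 2.27 and 2.16 FPKM in parental cells. HSP90AA1 was not called (438 and 425 FPKM in tolerant cells and 420.0 and 397 FPKM in parental cells, adjusted p = 0.307). Lower in tolerant cells were DNAJC8, a splicing-associated J-domain protein (37.7 and 37.4 FPKM in tolerant cells and 87.4 and 78.4 FPKM in parental cells), DNAJC4 (15.02 and 13.7 FPKM in tolerant cells and 33.9 and 25.9 FPKM in parental cells) and DNAJC11 (18.1 and 18.2 FPKM in tolerant cells and 29.6 and 35.02 FPKM in parental cells). With CPI203, DNAJC13 and DNAJB5 stood in tolerant cells at 33.8 and 37.98 FPKM and at 1.95 and 1.66 FPKM, and in parental cells at 18.4 and 20.2 FPKM and at 2.60 and 2.47 FPKM.

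**Figure D5:**
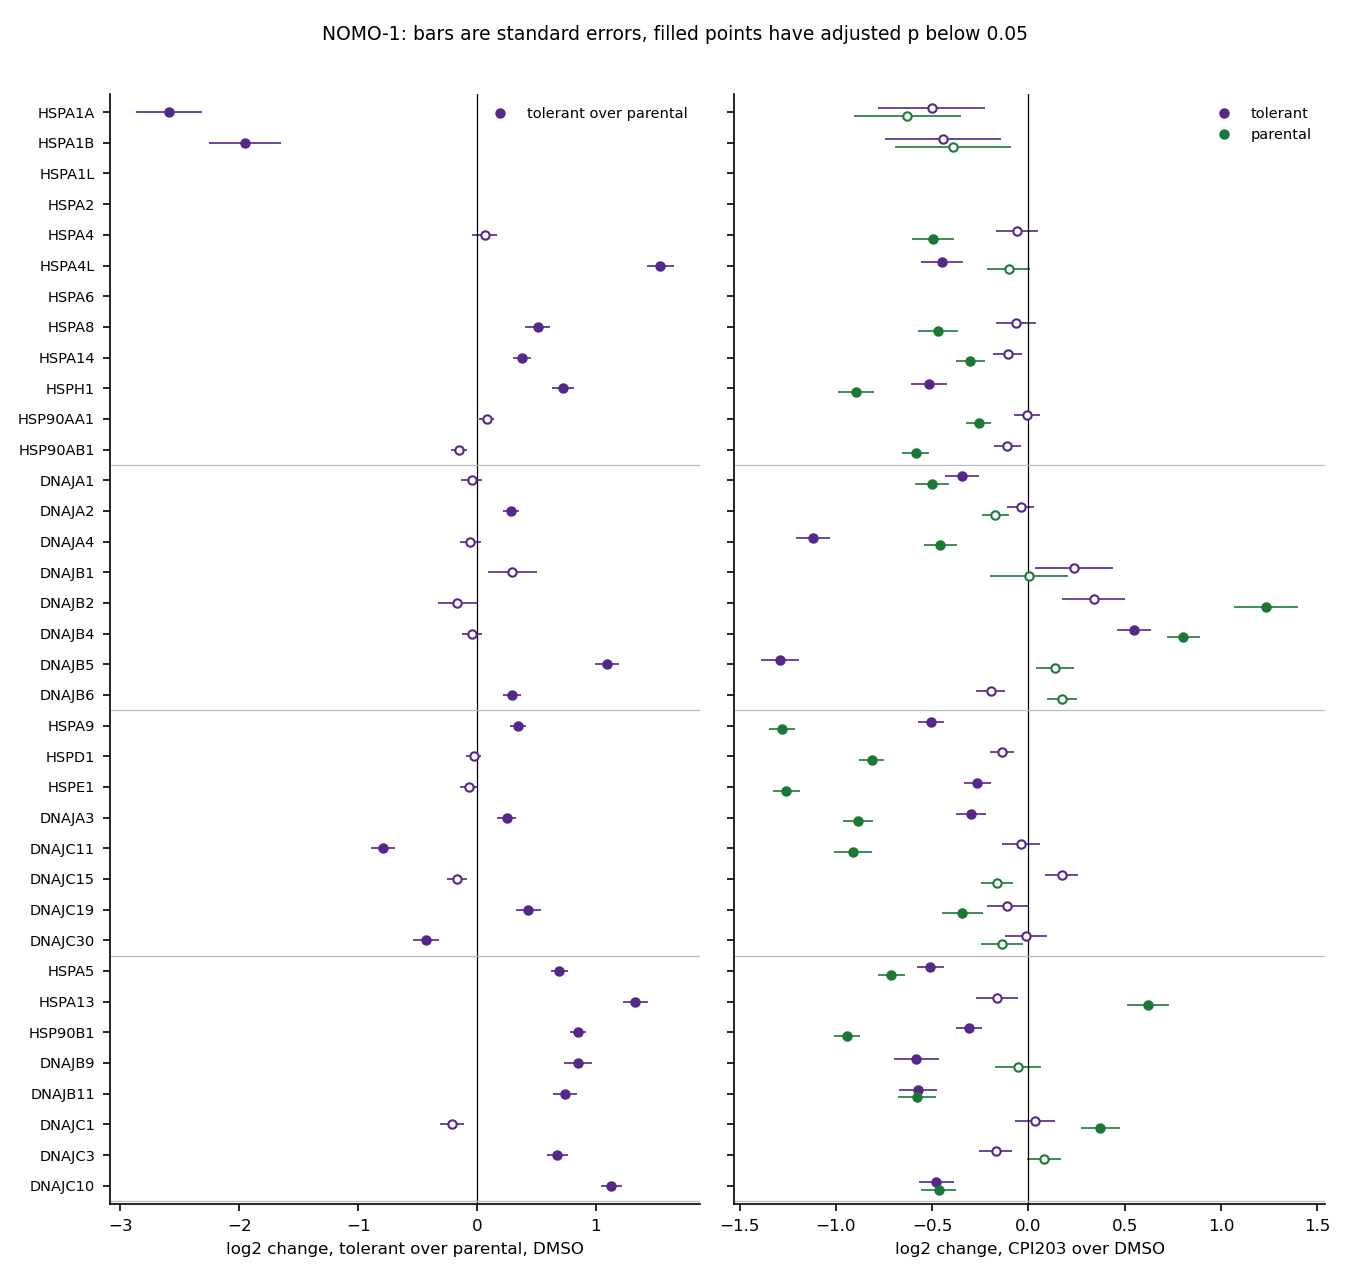
Log2 change of FPKM + 1 with its SE (horizontal axis) for members in NOMO-1, grouped by compartment. The left panel gives tolerant over parental cells in DMSO and the right panel CPI203 over DMSO in tolerant and in parental cells, with filled points at adjusted p below 0.05. Of 8 endoplasmic reticulum members, 7 are filled to the right of 0 on the left panel, and HSPA1A and HSPA1B lie near -2.6 and -2.0.

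Genes that work with the members but are not of the rule were described from 5 lists. Of 20 co-chaperones of HSP70 and HSP90 without a J domain, 11 rose in clone 1, 10 in clone 4 and 12 in parental A375 with DMSO over untreated, where 30.3%, 28.3% and 12.2% of all genes were called higher, and 0, 0 and 2 fell. Under the other scalings 8 to 11 rose and 2 to 4 fell in each clone. Among them, PTGES3, the HSP90 co-chaperone p23, rose in parental cells (log2 change 0.82, SE 0.10, adjusted p = 0.000163), as did CHORDC1, another HSP90 partner (log2 change 1.08, SE 0.09, adjusted p = 1.07e-05). All 8 subunits of TRiC, the cytosolic chaperonin, rose in each of the 3 A375 populations (median log2 change 0.65 in clone 1, 0.46 in clone 4 and 0.46 in parental cells), against the same shares of all genes, and with quantile normalization 8, 6 and 5 did. In NOMO-1 with CPI203, 3 of the 8 fell in tolerant cells and 8 in parental cells (median -0.58), where 20.7% and 33.0% of all genes were called lower, and 7 had a called positive difference, against 16.9% of all genes. Of 7 mitochondrial partners, such as the protease CLPP and the chaperone TRAP1, 4 fell in tolerant cells and 6 in parental cells, against the same 20.7% and 33.0%. Of 17 partners in the endoplasmic reticulum, 15 were higher and 0 lower in tolerant than in parental NOMO-1 cells with DMSO (median log2 change 0.97), where 28.2% of all genes were called higher and 36.2% lower. They were led by HYOU1, the HSP110 of that compartment (log2 change 2.47, SE 0.08, adjusted p = 1.26e-08), and XBP1, a transcription factor of the unfolded protein response (log2 change 1.90, SE 0.09, adjusted p = 1.37e-07). With CPI203, 11 of the 17 fell in tolerant cells and 10 in parental cells, again against 20.7% and 33.0% of all genes. The heat shock factors moved in different directions with CPI203. HSF2 was called higher in parental A375 (log2 change 0.38, adjusted p = 0.0138) and in tolerant and parental NOMO-1 (0.33 and 0.77, adjusted p = 0.025 and 0.000145). HSF4 was called higher in tolerant and parental NOMO-1 (0.80 and 1.55). HSF1 was called lower in parental NOMO-1 (-0.32, adjusted p = 0.0389). It was also called lower with CPI203 in all 3 A375 populations, with a log2 change of -0.29, SE 0.09, adjusted p = 0.0405 in clone 1, -0.45, SE 0.09, adjusted p = 0.00391 in clone 4, and -0.39, SE 0.09, adjusted p = 0.00579 in parental cells. The parental call was lost without parental DMSO replicate 1 (-0.28), and the clone 1 call without clone 1 DMSO replicate 2 (-0.21), CPI203 replicate 1 (-0.28) or CPI203 replicate 2 (-0.30). In the untreated clones HSF1 was lower than in parental cells (log2 change -0.42, adjusted p = 0.0021 in clone 1, and -0.32, adjusted p = 0.0119 in clone 4), the clone 4 call being lost without parental untreated replicate 1 (-0.28) or clone 4 untreated replicate 1 (-0.31). With DMSO over untreated HSF1 was called higher in clone 1 (log2 change 0.39, adjusted p = 0.00435) and in clone 4 (log2 change 0.33, adjusted p = 0.0142), and neither was called after quantile normalization, median-ratio scaling or the length and GC correction. The clone 1 call was also lost without clone 1 DMSO replicate 2 (0.31), and the clone 4 call without either untreated clone 4 library (0.32 and 0.34) or clone 4 DMSO replicate 1 (0.28). In parental cells none of HSF1, HSF2, HSF4 and HSBP1, a protein that binds heat shock factors, was called between DMSO and untreated (lowest adjusted p = 0.201, for HSBP1).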

How the data were processed

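RNA of 26 libraries was sequenced by the authors from A375 cells grown in DMEM and NOMO-1 cells grown in RPMI, per the labels' protocols. The deposited values are FPKM per gene. TopHat 1.4.1, Cufflinks and build hg19 are named in the submitters' processing notes. FPKM scales each library by its total, so a change in a few very high genes moves all others, and read counts were not used here.

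Columns were matched to samples by title. For the untreated clone libraries another label names the parental line, and the title was followed. Of 90 rows whose symbol met the rule, 18 lie on alternate sequences, are listed at 0 and were left out. Start coordinates count from 0 in the table and are given from 1.

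Testing was limited, within each line, to genes that reached 1 FPKM in 2 libraries, and was done on log2(FPKM + 1) with limma 3.58.1 (trended and robust moderation, R 4.3.3), in 1 fit per line over all its groups, with 9 residual degrees of freedom in A375 and 4 in NOMO-1. P-values were adjusted by Benjamini-Hochberg over all genes tested. Other steps used Python 3.11.15 and pandas 2.3.3. The fit was tested on simulated data. Of 18 comparisons, the differences of DMSO over untreated were added after seeing the data. The members, lists and compartments were chosen with earlier results of these data known. Genes named were 20 fixed chaperones and, per comparison, up to 5 called rises and 5 called falls whose higher group averaged 5 FPKM or above and whose libraries did not overlap. Any other member named is said to have been chosen after its values were seen or is given as part of a count. Alternatives were another pseudocount, no filter or one of 5 FPKM, quantile and median-ratio scaling, a correction for length and GC content (71 of 72 members have both), limma's options, the replicate block, only the compared libraries, and leaving libraries out. Same-numbered replicates were not treated as pairs. Promoter stretches are from RefSeq, GRCh38.p14. Protein sequences were not used here.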

Additional observations from a re-analysis of the deposited data

Results flagged for a closer look

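The members below differed between populations in how they changed, by limma's test of the difference itself at a Benjamini-Hochberg adjusted p below 0.05. Each value is the log2 change in the clone or the tolerant cells minus that in the parental cells. Groups had 2 libraries, too few to look for single libraries far from the rest.

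For CPI203 over DMSO in A375 clone 1, the difference was negative for DNAJB1 (-0.94) and positive for HSPB8 (1.13), HSPA5 (0.83) and HSPA6 (0.75). In clone 4 it was negative for DNAJB1 (-0.58) and positive for HSPA6 (0.96), HSPA5 (0.78), HSPB8 (0.78) and HSP90B1 (0.50). HSPB8 and HSPA6 stood under 4 FPKM in every A375 library. In NOMO-1 tolerant cells it was negative for DNAJB5 (-1.43), DNAJC13 (-1.35), DNAJC18 (-1.02), DNAJB2 (-0.90), HSPA13 (-0.78), DNAJC6 (-0.77), DNAJA4 (-0.66), DNAJB9 (-0.53) and DNAJB6 (-0.37). It was positive there for HSPE1 (0.99), DNAJC11 (0.87), DNAJC9 (0.85), HSPA9 (0.78), DNAJC5 (0.72), HSPD1 (0.68), HSP90B1 (0.64), DNAJA3 (0.59), HSP90AB1 (0.48) and DNAJC7 (0.40).

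For DMSO over untreated in A375 clone 1, the difference was negative for HSPA1A (-1.88), HSPA1B (-1.79), DNAJC28 (-0.95), HSPA4L (-0.94), DNAJC1 (-0.82), HSPB8 (-0.82), HSP90AA1 (-0.78), HSPA5 (-0.75), DNAJB2 (-0.74) and HSP90B1 (-0.43), and positive for DNAJC22 (1.46), DNAJC17 (0.99), DNAJC2 (0.78), DNAJC12 (0.76), DNAJC7 (0.73) and HSPA6 (0.50). In clone 4 it was negative for HSPA1A (-1.60), HSPA1B (-1.60), HSP90AA1 (-1.40), HSPA4L (-1.09), DNAJC28 (-0.83), DNAJC5 (-0.70), DNAJC1 (-0.62), HSPA12A (-0.57), HSPA5 (-0.54), DNAJB1 (-0.50), HSPB8 (-0.47), HSPH1 (-0.47), DNAJC9 (-0.46) and DNAJB6 (-0.35), and positive for DNAJC22 (1.53), DNAJC17 (1.05), DNAJC4 (0.91), DNAJC2 (0.54), DNAJC7 (0.52) and HSPA6 (0.43). Differences for the untreated cells were added after the values of the other comparisons were seen. Both clones are set against the same parental libraries. Leaving out the 3 A375 libraries that stand apart leaves 1 library in parental DMSO and in clone 4 DMSO. The clone 4 differences of HSPA6 and HSPB8 were then 0.42 and -0.445.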

How the results depend on the processing

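Counts of members called moved by over 1.5 times under some alternatives. With only the compared libraries in the fit, 19 were called for CPI203 in parental A375, 29 in clone 1, 0 in clone 4 (limma, 9 at an unadjusted p below 0.05) and 0 for the clone 4 difference (8 at an unadjusted p below 0.05), 5 for clone 1 and 3 for clone 4 over parental in DMSO, 14 in parental cells and 13 in clone 4 for DMSO over untreated, and 6 for its clone 4 difference. Without the 3 libraries that stand apart (replicate 1 of parental DMSO and of clone 4 DMSO, and replicate 2 of clone 4 with CPI203), 34 were called for CPI203 in clone 1, 9 for its difference and 28 for the clone 1 difference of DMSO over untreated. The counts for both of these differences rest on 1 parental DMSO library, whose spread is borrowed from the other groups, so no result is drawn from them. With genes at 5 FPKM or more, 2 and 3 were called for the CPI203 differences of clone 1 and clone 4, and with a pseudocount of 0.1, 3 for clone 4. The length and GC correction, chosen after seeing the data, gave 9 for each clone's CPI203 difference and 26 for clone 1 over parental in DMSO. It also turned the direction of DNAJB1 in clone 1, DMSO over untreated (-0.16), DNAJC10 in the NOMO-1 CPI203 difference (0.27) and HSPE1 in tolerant over parental NOMO-1 (0.14). In each case the cause was not tested.

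Leaving out 1 library gave 10 to 11 calls for CPI203 in clone 1, 13 to 27 in clone 4, 20 to 31 in parental A375, 18 to 23 in tolerant NOMO-1 and 29 to 39 in parental NOMO-1. It gave 3 to 5, 3 to 6 and 14 to 30 for the CPI203 differences of clone 1, clone 4 and tolerant cells. It gave 24 to 26 and 25 to 27 for the untreated clones 1 and 4, 10 to 18 and 18 to 25 for them in DMSO, and 29 to 36 for tolerant cells. For DMSO over untreated it gave 24 to 31 in clone 1, 23 to 35 in clone 4 and 15 to 23 in parental cells, and 11 to 17 and 11 to 27 for the differences. Of 1920 tests of called members that each left out 1 library, 1525 kept the call and 395 lost it, with no reversal. Of 416 calls of members, summed over 18 comparisons, quantile normalization ended 67, the fit without a filter 47, median-ratio scaling 25 and the fit without limma's trend and robust options 3.

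Replicates with the same number were not treated as pairs, since the labels tie them to nothing shared. The correlations of their deviations ran from -0.729 to 0.721 in A375. In NOMO-1 they ran from 0.0184 to 0.386, all positive, and 4 of 6 were over 0.1. Something shared by same-numbered NOMO-1 libraries is therefore possible and would add to the spread of the main fit. With the replicate number as a block, 31 members were called for CPI203 in parental A375, 20 in clone 1, 18 in clone 4, 40 in parental and 32 in tolerant NOMO-1 and 27 for the NOMO-1 difference, and no count moved by over 1.5 times. Depth is unknown, so counting error could not be given, and members under 1 FPKM could not be tested.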
